A study of Mus musculus with 2 samples.

Results

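The transcripts of Mediator and cohesin were compared in the mouse embryonic stem cell line E14 after knockdown of Mll2 by a lentiviral short hairpin RNA (shRNA) and after infection with a control shRNA. The genes were taken by name from the platform annotation of the array. They comprised every Med gene with a number, the Mediator kinase genes Cdk8, Cdk19 and Ccnc, the cohesin genes Smc1a, Smc3, Rad21, Stag1 and Stag2, the loader genes Nipbl and Mau2, the release factors Wapl, Pds5a and Pds5b, and Ctcf. A probe set counted only if the annotation gave it 1 symbol. This gave 44 genes of the 18193 named on the array, 33 of Mediator and 11 of cohesin and its partners, read by 110 probe sets.

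The labels describe 24 h of infection with the lentivirus and 5 days of puromycin selection, and name no cloning step, so each sample was a selected population. Both samples carry the same protocol text. The promoter that drives the hairpins, their sequences and the genotype of the line beyond its name were not given in the sources used here. Messenger RNA was read on 1 Affymetrix 3' expression array per group, called the knockdown array and the control array here. Without replicates the groups cannot be tested against each other, and every ratio describes these arrays alone. The name Mll2 has stood for both Kmt2d and Kmt2b in the mouse. Kmt2d measured 335 after knockdown and 736 in the control, a 2.20-fold lower value. Kmt2b had 852 and 901, a log2 ratio of -0.081 (0.036 with spike-in scaling, described further on). Each of these readings rests on 1 probe set. A further Kmt2d probe set lay on both arrays below the signal floor described further on.

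Mediator is a large complex that links transcription factors bound at enhancers to RNA polymerase II at promoters. Its head and middle modules touch the polymerase, its tail receives the activators, Med14 is the scaffold that holds the modules together, and a kinase module of Cdk8 or Cdk19, Ccnc, Med12 and Med13 docks reversibly and keeps the polymerase away. Cohesin is a ring of SMC proteins that entraps and extrudes DNA. It is loaded by Nipbl and Mau2, halted at sites bound by Ctcf, and removed by Wapl together with a Pds5 protein. In embryonic stem cells both complexes sit at the enhancers and promoters of active genes. Kmt2d marks enhancers by methylation of histone H3 lysine 4, and Kmt2b has a CXXC domain that recognises unmethylated CG dinucleotides in promoters.

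All 44 genes were measured, with their brightest probe set above a floor of 64.7 in signal on both arrays. The floor was the median of all values of both arrays. None of the 44 differed by 2-fold or more in either direction, where 2.45% of the 11805 measured genes did (1.47% higher and 0.983% lower in the knockdown array). At 1.5-fold the background share was 12.1% (7.4% higher and 4.68% lower), and 1 member passed. This was Med14, the scaffold subunit, at a signal of 1489 after knockdown and 2682 in the control. It was 1.80-fold lower, a log2 ratio of -0.85. In bulk RNA, fewer cells of a type and less RNA per cell cannot be told apart. The highest ratio was that of the kinase-module gene Med12l, at 309 against 218 (knockdown against control, the order used throughout; log2 ratio 0.51, 1.42-fold higher). In the plot of signals on both arrays the members follow the diagonal, and Med14 lies farthest from it.

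**Figure D1:**
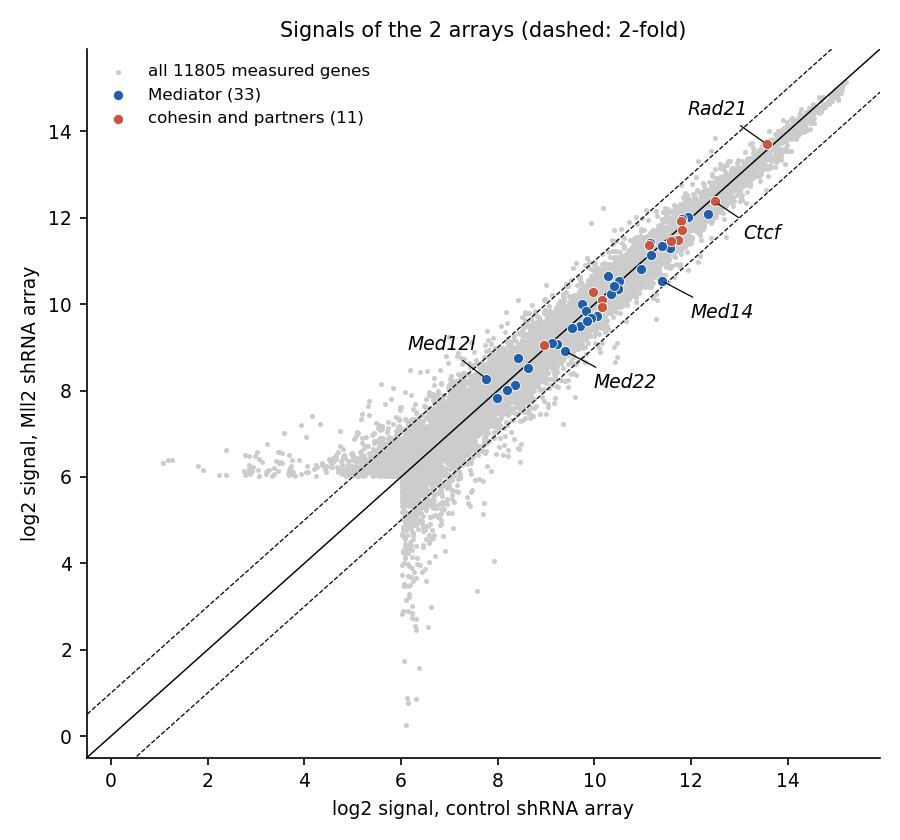
Log2 signal on the control shRNA array (x axis) against log2 signal on the Mll2 shRNA (knockdown) array (y axis). Grey points are the 11805 measured genes, blue points the 33 Mediator genes and red points the 11 cohesin genes and partners, each by its brightest probe set. The solid line marks equal signal and the dashed lines a 2-fold difference. All 44 members lie between the dashed lines, and Med14, at a log2 ratio of -0.85, lies nearest to the lower one.

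The ratios of the members lay close together. Their SD over the 44 genes was 0.24 on the log2 scale, against 0.35 over the 7870 genes whose control signal fell within the members' range. Of those 7870 genes 8.18% reached 1.5-fold and 1.54% reached 2-fold. The ratio of a gene was also set beside the spread at its level, a scaled median absolute deviation over the 500 genes of closest mean signal. True differences, other differences between the cultures and noise all enter that spread and cannot be told apart in it. The deviation was taken around the median of those 500 genes, whereas the ratio was compared with 0. Of the members, 10 (22.7%) lay beyond the spread, as did 33.5% of all measured genes. Med14 alone lay beyond 2 times the spread.

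Below 0 were 29 of the members (65.9%), against 46.5% of all measured genes. The median ratio was -0.10, against 0.026 over all measured genes. Over the 7870 genes within the members' range of control signal, 48.2% lay below 0 and the median was 0.012. Scaling the arrays on the bacterial spike-in controls, whose mean difference was -0.12, raised the ratio of every member and moved the median of all genes to 0.14 and that of the members to 0.013. Small differences are therefore read relative to the median of all genes. Relative to it, 31 of the 44 members were lower, and the median of the members was lower by 0.13 as deposited. Spike-in scaling adds the same amount to all ratios above the floor, so it could hardly change this and also gave 0.13. Over all 44 genes, 11 small negative ratios turned positive with this scaling: those of Med7, Med15, Med16, Med19, Med20, Med30, Cdk19, Smc1a, Smc3, Pds5a and Ctcf.

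The promoters of the genes at the ends of the range are shown for their CG content, since CXXC domains such as that of Kmt2b recognise unmethylated CG. Nothing was measured at promoters on these arrays, so the sequences are a description. Med14 had the lowest ratio and Med22 the next lowest, and Med12l had the highest. Each sequence runs 5' to 3' on the gene's strand from 250 bases before to 50 bases after the RefSeq start (GRCm38.p6), with CG dinucleotides in capitals.
Med14, chrX:12761924-12762223, minus strand: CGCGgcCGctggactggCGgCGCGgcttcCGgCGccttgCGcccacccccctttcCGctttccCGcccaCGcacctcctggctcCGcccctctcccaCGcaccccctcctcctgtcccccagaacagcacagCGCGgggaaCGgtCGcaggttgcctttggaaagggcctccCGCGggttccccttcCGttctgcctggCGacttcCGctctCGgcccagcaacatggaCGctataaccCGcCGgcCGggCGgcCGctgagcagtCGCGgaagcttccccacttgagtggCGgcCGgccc
Med22, chr2:26910593-26910892, minus strand: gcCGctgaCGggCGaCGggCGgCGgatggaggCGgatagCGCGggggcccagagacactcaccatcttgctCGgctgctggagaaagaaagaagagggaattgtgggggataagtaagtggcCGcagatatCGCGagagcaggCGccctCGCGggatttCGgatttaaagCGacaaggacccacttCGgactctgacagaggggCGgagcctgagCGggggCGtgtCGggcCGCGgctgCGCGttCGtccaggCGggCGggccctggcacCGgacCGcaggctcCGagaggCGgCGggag
Med12l, chr3:59006728-59007027, plus strand: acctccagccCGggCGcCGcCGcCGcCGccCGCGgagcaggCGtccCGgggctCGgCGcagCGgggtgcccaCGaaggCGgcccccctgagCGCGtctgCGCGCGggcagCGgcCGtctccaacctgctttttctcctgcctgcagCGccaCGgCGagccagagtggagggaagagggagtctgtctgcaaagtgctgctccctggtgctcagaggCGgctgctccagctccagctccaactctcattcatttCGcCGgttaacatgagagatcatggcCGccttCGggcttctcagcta
The Med14 promoter holds 34 CG dinucleotides, the Med22 promoter 35 and the Med12l promoter 30, so the genes at opposite ends of the range had promoters of like CG content.

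RefSeq promoters were matched for 36 of the 44 members. Their promoters had between 8 CG dinucleotides in 300 bases (Med16) and 61 (Med13l), with a median of 23. The median was 22 over 9538 measured genes and 8 over all 27025 genes with a promoter, taking for each gene the start with the most. The 22 matched members below 0 had a median of 21.5 and the 14 above 0 a median of 27. Across these 36 genes the rank correlation of CG count with the log2 ratio was 0.20 (Spearman; promoters are not independent replicates), and across the 9538 genes it was 0.022. Short motifs were searched on both strands. The GC box (GGGCGG) was present in 27 of the 36 (75.0%, against 68.6% of measured genes and 37.3% of all genes). An ETS core (CCGGAA) was present in 16 (44.4%, against 29.2% and 15.6%). CCAAT was present in 15 (41.7%, against 37.9% and 37.4%) and the TATA box (TATAAA) in 3, Med7, Med16 and Med28 (8.33%, against 6.35% and 13.7%). The palindromic NRF1 motif was in none of the 36, against 2.23% and 1.01%. The GC box, the ETS core and the NRF1 motif contain CG and so overlap the CG count. A match is not evidence of binding.

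Within Mediator, the head module, which contacts the polymerase, lay below 0 as deposited. Its 7 genes had ratios between -0.47 and -0.028, with a median of -0.16 (-0.044 on the spike-in scale, where Med20 was at 0.089). Relative to the median of all genes the head was lower by between 0.18 and 0.23 under the settings tried. Settings that shift nearly all ratios alike, such as spike-in scaling, could hardly change this. Med22, a small head subunit read by 1 probe set, measured 484 after knockdown and 668 in the control, 1.38-fold lower and beyond the spread of 0.33 at its level. Med6, which joins the head to the middle, gave 848 against 1066 in its brightest probe set (log2 ratio -0.33). Its second probe set gave 730 against 726, so the pair did not show the same difference. Med11 was at -0.19, Med17, the scaffold of the head, at -0.16, Med18 at -0.15 and Med8 at -0.14. Each of these 4 lay within the spread at its level. Med20, the highest of the head, had 2246 against 2290 in its brightest probe set (-0.028), and was at -0.23 in the second.

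**Figure D2:**
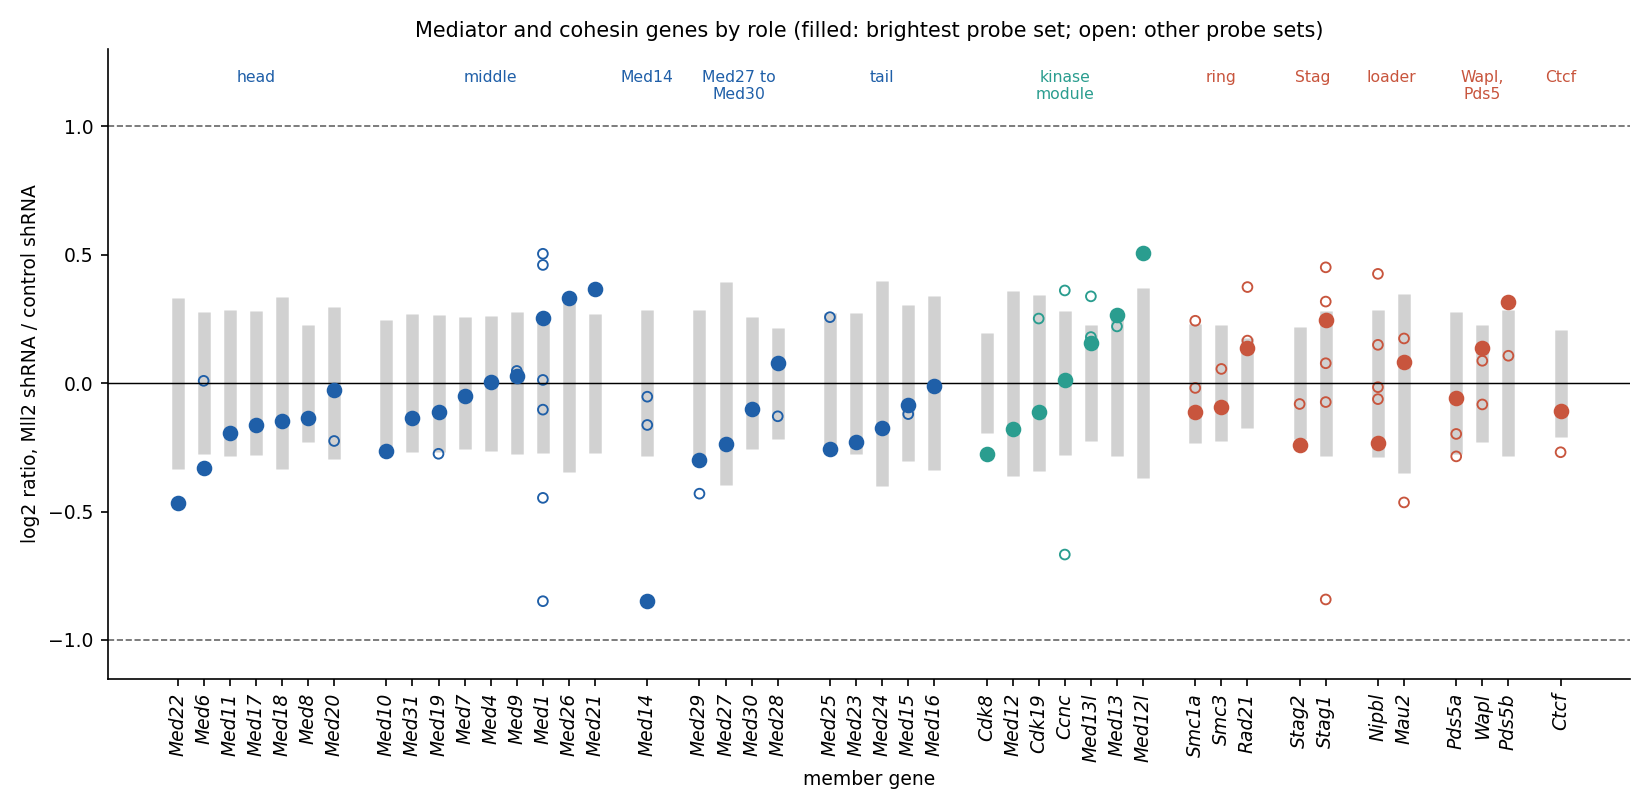
Log2 ratio of Mll2 shRNA over control shRNA (y axis) for the 44 member genes (x axis), grouped by role. Filled points are the brightest probe set of each gene, open points its further probe sets where both arrays exceeded the floor, grey bars the spread of ratios at that level on either side of 0, and dashed lines a 2-fold difference. The 7 head genes and the 5 tail genes lie below 0, while the middle and kinase-module genes lie on both sides.

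The middle module, which carries the signal on to the polymerase, lay on both sides of 0. Of its 9 genes 5 lay above 0 and 4 below, with a median of 0.0055 (spike-in scaling gave 0.12, quantile normalization -0.031). Med21, which pairs with Med7 in the hinge of the middle module, read 1602 against 1242 (1 probe set, log2 ratio 0.37, spread 0.27). Its partner Med7 had 2591 against 2685, a ratio of -0.051. Med26, which helps recruit elongation factors to Mediator, gave 433 against 344 (log2 ratio 0.33, spread 0.35). Its second probe set was above the floor on the knockdown array only and was higher by at least 1.36-fold. The lowest middle gene was Med10, with 2506 against 3013 in its 1 probe set (log2 ratio -0.27, spread 0.24). Med31 was at -0.14, Med19 at -0.11 (-0.27 in its second probe set), Med4 at 0.0055 and Med9 at 0.027 (0.047 in its second probe set).

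Med1, the middle subunit that nuclear receptors bind, was read by 7 probe sets, which pointed in both directions. The brightest gave 2715 after knockdown and 2275 in the control (log2 ratio 0.26), and the next brightest gave 1814 against 1319 (0.46). The dimmest gave 98.4 against 177, a ratio of -0.85 and the opposite direction. Over all 7 the mean was -0.024 ± 0.49 (SD over probe sets). With such a spread no direction can be given for Med1.

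Med14 was read by 5 probe sets, of which 3 exceeded the floor on both arrays. The brightest, which gave the 1.80-fold difference, showed the largest difference of the 5. Only 2 of the 500 genes nearest in signal had a lower ratio, and the spread at that level was 0.29. The second probe set was much dimmer, at 113 after knockdown and 126 in the control (log2 ratio -0.16), and another lay just above the floor at 67.2 against 69.7 (-0.053). A further one was above the floor on the control array only (55.8 against 74.2, at least 1.15-fold lower), and the dimmest was below it on both, at 51.5 against 60.7. All 4 measured were thus lower in the knockdown, but the 3 above the floor on both averaged -0.35 ± 0.43 (SD). With the mean of its 4 measured probe sets Med14 was at -0.32 and no longer passed 1.5-fold. With spike-in scaling the brightest probe set was at -0.73.

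The tail, where activators dock, lay below 0 in all 5 of its genes, with ratios from -0.26 to -0.011 and a median of -0.17 (-0.057 on the spike-in scale, where Med15 was at 0.031 and Med16 at 0.11). Relative to all genes the tail was lower by between 0.11 and 0.26 under the same settings, with the same limit as for the head. Med25, the docking subunit of several activators, gave 819 against 979 in its brightest probe set (log2 ratio -0.26). Its second probe set gave 379 against 317, in the opposite direction (0.26). Med23, the subunit that Elk1 binds, had 784 against 920 (-0.23) in its 1 probe set, and Med24, next to it in the tail, had 226 against 255 (-0.17). Each of these lay within the spread at its level. Med15, the tail subunit bound by Smad proteins, was at -0.086 and -0.12 in its 2 probe sets above the floor. Med16, with 550 against 554, differed least, at -0.011.

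Med27, Med28, Med29 and Med30 lie between the head and the tail and have been assigned to either. Their median was -0.17 (-0.052 on the spike-in scale) and 3 of the 4 lay below 0. Med29 measured 860 after knockdown and 1058 in the control (log2 ratio -0.30, spread 0.29), and its second probe set gave 69.8 against 94.1 (-0.43), the same direction. Med27 was at -0.24 and Med30 at -0.10, each with 1 probe set. Med28 was at 0.080 in its brightest probe set, with 4145 against 3921, and at -0.13 in the second.

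The kinase module lay on both sides of 0. Of its 7 genes 4 lay above 0 and 3 below, with a median of 0.013 (spike-in scaling gave 0.13, quantile normalization -0.023). Cdk8, the kinase itself, had 4327 after knockdown and 5240 in the control in its 1 probe set, a log2 ratio of -0.28 beyond the spread of 0.20 at its level. Its paralogue Cdk19 had 367 against 397 (-0.11, or 0.0043 with spike-in scaling), and 100.2 against 84.2 in its second probe set (0.25). Ccnc, the cyclin that activates both kinases, was at 0.013, with 1474 against 1460. Its other 2 probe sets above the floor pointed in opposite directions, 455 against 355 (0.36) and 86.2 against 137 (-0.67), so that Ccnc averaged -0.098 ± 0.52 (SD over 3).

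Med12, which activates Cdk8 through Ccnc, measured 257 after knockdown and 291 in the control (log2 ratio -0.18). Its paralogue Med12l lay in the other direction, at 309 against 218, with a ratio of 0.51 beyond the spread of 0.37. Still, 85 of the 500 genes nearest in signal had a higher ratio than Med12l. Med12 and Med12l each rest on 1 probe set above the floor, and 2 further Med12l probe sets lay below it. Med13 tethers the kinase module to the core, and its 2 probe sets above the floor were both higher, at 1032 against 860 (0.26) and 542 against 465 (0.22). A further pair of Med13 probe sets was above the floor on the control array only, lower by at least 1.33-fold and 1.14-fold. Med13l was higher in all 3 of its probe sets, at 3996 against 3589 (0.16), 2191 against 1935 (0.18) and 139 against 110.3 (0.34). In the brightest probe sets the ratio of Med13 minus that of Med13l was 0.11, and the ratio of Med12 minus that of Med12l was -0.69. With all measured probe sets averaged, Med13 was at -0.030 and Med13l at 0.22. These differences could not be tested.

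**Figure D3:**
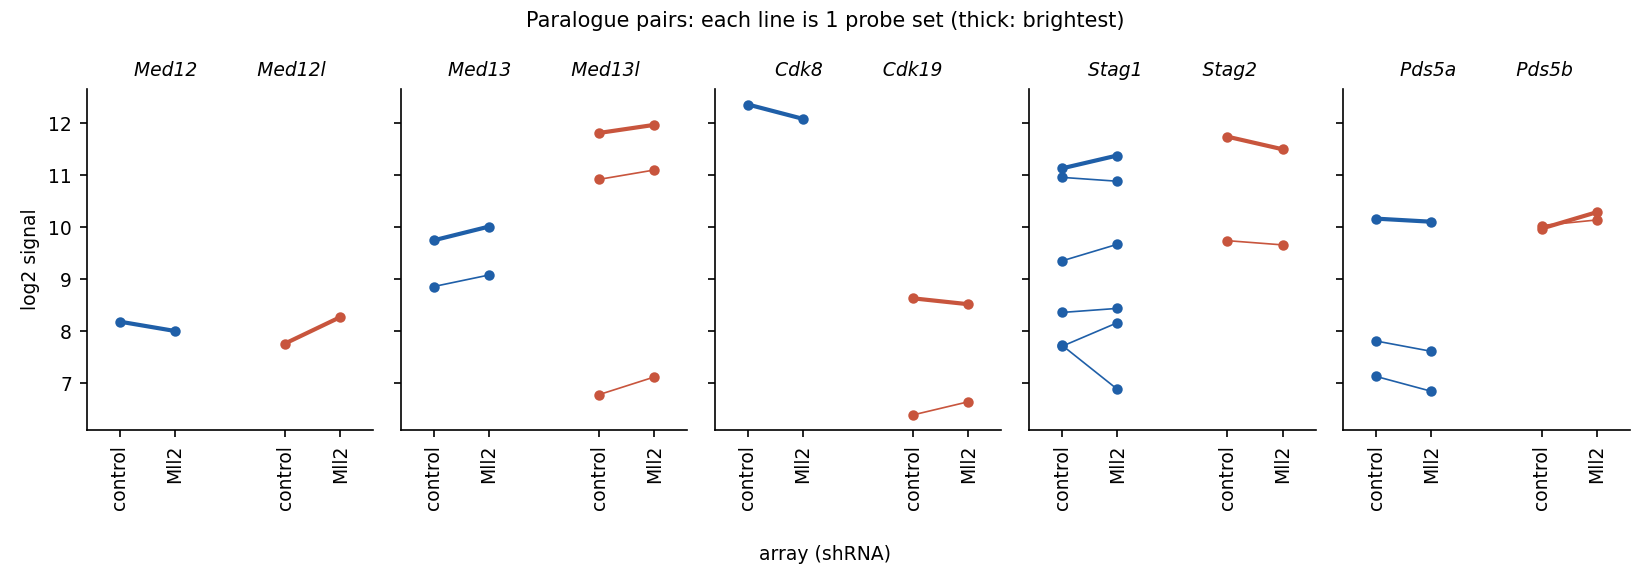
Log2 signal (y axis) on the control shRNA and the knockdown array (x axis) for the 5 pairs of paralogous genes. Each line joins the values of 1 probe set that exceeded the floor on both arrays, with the brightest of each gene drawn thick. The line of Med12l slopes up and that of Med12 down, and the 6 lines of Stag1 slope in both directions.

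The ring of cohesin was nearly level. Smc1a measured 2840 after knockdown and 3068 in the control (log2 ratio -0.11), and Smc3 had 3378 against 3604 (-0.094). With spike-in scaling they were at 0.0056 and 0.024. Their dimmer probe sets ran from -0.019 to 0.24. Rad21, the kleisin subunit that closes the ring, was higher in all 3 of its probe sets, at 13322 against 12115 (0.14), 5809 against 5179 (0.17) and 357 against 276 (0.37). Their mean was 0.23 ± 0.13 (SD), and the ratio of the brightest lay within the spread of 0.18 at its level. Of the 500 genes nearest in signal to Rad21, 64 had a higher ratio.

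The Stag subunits bind the ring and contact Ctcf, and a cohesin complex holds either Stag1 or Stag2. Stag2 was lower in both of its probe sets, at 2888 against 3415 (log2 ratio -0.24, spread 0.22) and 809 against 856 (-0.081). Stag1 was at 2658 against 2240 in its brightest probe set (0.25, spread 0.28). Of its other 5 probe sets 3 were also higher, at 0.078, 0.32 and 0.45, and 2 were lower, at -0.074 and -0.84. The lowest of these measured 118 after knockdown and 212 in the control. Over 6 probe sets Stag1 averaged 0.029 ± 0.46 (SD), and without the probe sets that can detect several transcripts it was at -0.074. The difference of 0.49 between the brightest probe sets of the paralogues therefore is not shared by all Stag1 probe sets.

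The loader genes gave no clear direction. Nipbl was read by 5 probe sets. The brightest had 977 against 1147 (log2 ratio -0.23), the next 838 against 875 (-0.062), and another of like brightness 887 against 660 (0.43), and all 5 averaged 0.053 ± 0.25 (SD). Mau2, the partner of Nipbl, had 529 against 500 in its brightest probe set (0.083), 399 against 354 in the next (0.17) and 167 against 231 in another (-0.46). The 3 Mau2 probe sets above the floor averaged -0.069 ± 0.35 (SD).

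Among the factors that take cohesin off DNA, Pds5b was the highest, with 1249 after knockdown and 1005 in the control (log2 ratio 0.31, spread 0.28). Its second probe set gave 1127 against 1047 (0.11). Of the 500 genes nearest in signal to Pds5b, 89 had a higher ratio. Pds5a was lower in all 3 of its probe sets, at 1101 against 1147 (-0.059, or 0.058 with spike-in scaling), 196 against 225 (-0.20) and 115 against 140.4 (-0.29). The mean ratios of these paralogues were -0.18 ± 0.11 (SD over 3) for Pds5a and 0.21 ± 0.15 (SD over 2) for Pds5b. A further Pds5b probe set lay below the floor on both arrays. The difference between the paralogues could not be tested. Wapl, the release factor that works with both, had 3871 against 3517 (0.14) and 3069 against 2889 (0.087), and its dimmest gave -0.083. Ctcf, the zinc-finger protein at which cohesin halts, had 5317 against 5727 (-0.11, spread 0.21) and 2911 against 3507 (-0.27). Both Ctcf probe sets were lower, although the first was at 0.010 with spike-in scaling.

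**Figure D4:**
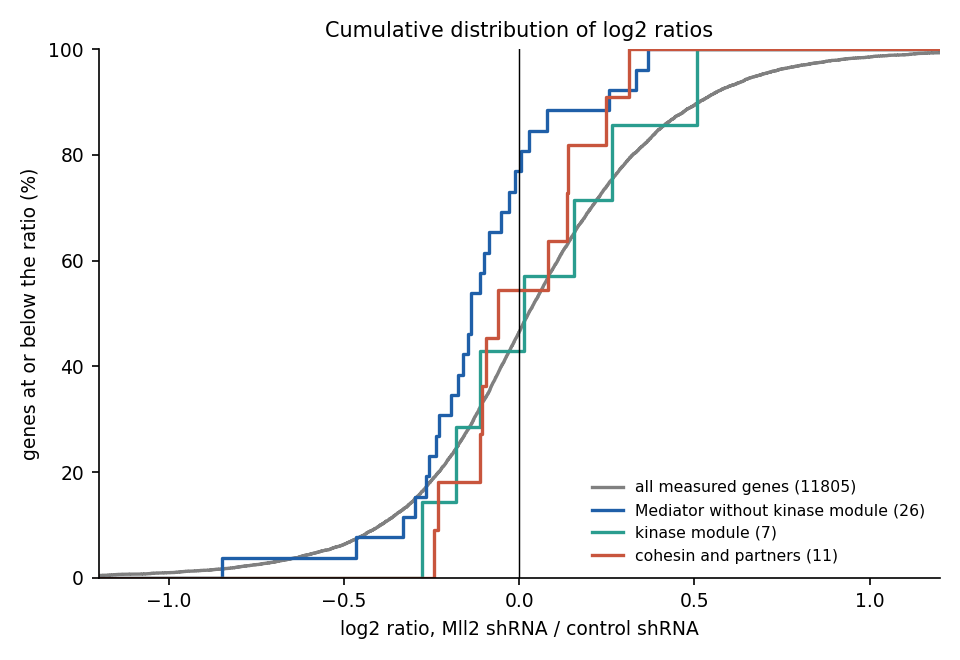
Share of genes (y axis, %) at or below each log2 ratio of Mll2 shRNA over control shRNA (x axis). Lines stand for the 11805 measured genes, the 26 Mediator genes outside the kinase module, the 7 kinase-module genes and the 11 cohesin genes and partners. At a ratio of 0 the Mediator line has reached 76.9% and the line of all genes 46.5%.

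The agreement of probe sets shows how far single ratios can be read. Of the 110 member probe sets 89 exceeded the floor on both arrays, 6 on 1 array and 15 on neither. None of the 89 reached 2-fold, where 1.90% of the 18509 such probe sets on the array did. At 1.5-fold were 4 of the 89, against 11.4% of all such probe sets, and all 4 were lower: 1 each of Med14, Med1, Stag1 and Ccnc. In Med1, Stag1 and Ccnc another probe set of the gene was higher. Of the 25 members with at least 2 probe sets above the floor, 13 (52.0%) had ratios of 1 sign in all of them, against 54.4% of 4713 genes on the array. The median SD over probe sets was 0.14 in the members and 0.19 in all genes. Probe sets of a gene share the array and can share sequence, so this spread does not cover variation between cultures. A further probe set named for both Med20 and Usp49 was not counted.

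Neighbouring machinery was read from lists of other genes. The RNA polymerase II subunits, the enzyme that Mediator contacts, lay on the same side as the Mediator core: 9 of 11 measured genes were below 0, with a median of -0.14 (-0.019 on the spike-in scale) and none at 1.5-fold. Polr2e had 3893 against 5435 (log2 ratio -0.48, with 0.071 in its second probe set), Polr2f 4235 against 5592 (-0.40) and Polr2j 3744 against 4557 (-0.28). Polr2a, which encodes the largest subunit, was at 0.13 in its brightest probe set and -0.32 in its second. The general transcription factors had 20 of 29 measured genes below 0 and a median of -0.063 (0.054 on the spike-in scale), with none at 1.5-fold. In that list the cyclin Ccnh was at -0.43, with 5353 against 7216 in its brightest probe set. Its 3 probe sets ran from -0.43 to 0.35 and averaged -0.15 ± 0.44 (SD). Taf6 was at 0.47 and Taf1 at 0.39. The elongation factors had 7 of 14 genes on either side of 0, a median of 0.0069 (0.12 on the spike-in scale) and none at 1.5-fold. Their largest differences were 0.30 in Hexim1, 0.30 in Nelfb and -0.27 in Ell2.

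SMC complexes other than cohesin lay on the higher side. Of 14 condensin and SMC5/6 genes 11 were above 0 and none reached 1.5-fold, with a median of 0.10 (0.22 on the spike-in scale), led by the condensin genes Ncapd3 (3439 against 2691, log2 ratio 0.35) and Ncapg (2520 against 2090, 0.27). Smc6 was the lowest at -0.25. Without the probe sets that can detect several transcripts, 12 of these genes were measured. Their median was then 0.058 against 0.032 over all genes, with 5 of the 12 below that all-gene median. Of 13 regulators and meiotic subunits of cohesin 11 were measured, 7 of them above 0, with a median of 0.13 (0.24 on the spike-in scale). Stag3, a meiotic Stag subunit, had 405 after knockdown and 252 in the control, 1.61-fold higher. It was the 1 gene of the 11 past 1.5-fold, where 7.4% of all measured genes were 1.5-fold higher. Rec8, the meiotic kleisin, was at 0.58, with 157 against 105. Stag3 and Rec8 each rest on 1 probe set, and the spreads at their levels were 0.38 and 0.47. Hdac8, the deacetylase of Smc3, was at 0.47 near the floor (109 against 78.8), and Cdca5, which protects cohesin from Wapl, was at -0.39 in both of its probe sets, with 5684 against 7460 in the brighter. Smc1b was below the floor on both arrays, and no probe set was named for Rad21l alone.

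**Figure D5:**
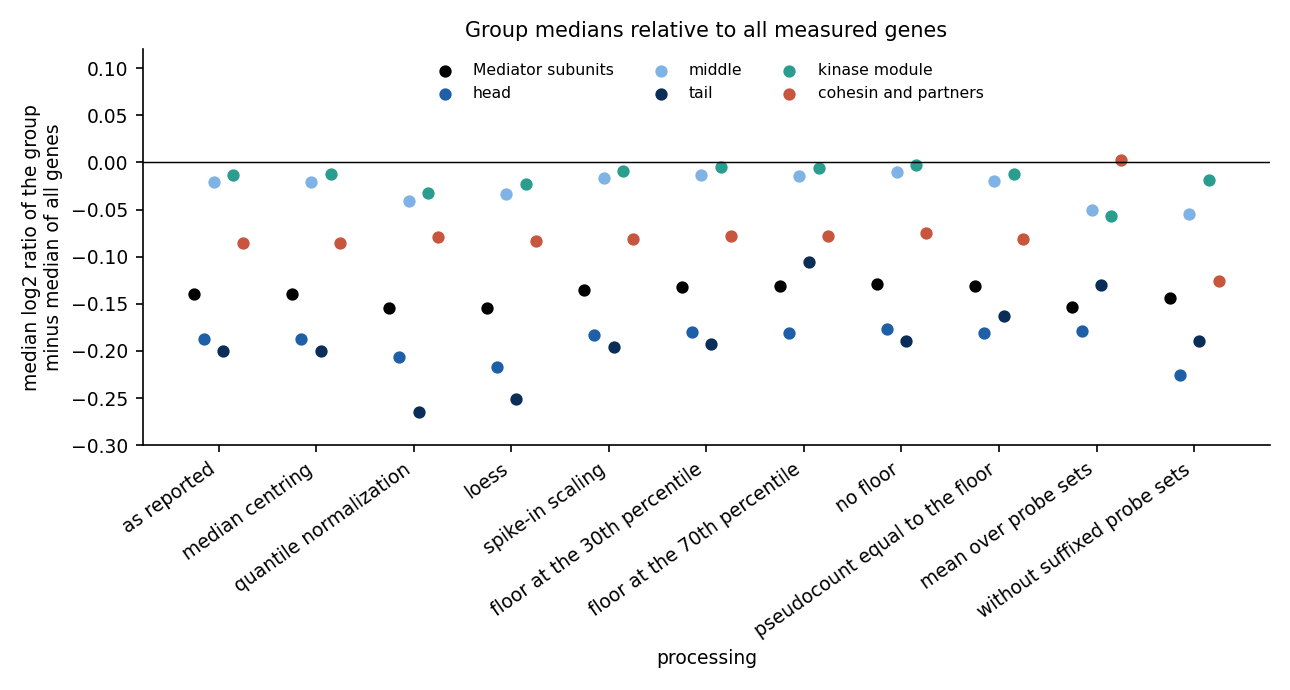
Median log2 ratio of a group minus the median of all measured genes (y axis) under each way of processing the values (x axis), for the Mediator genes, 4 of their modules and the cohesin genes with partners. The head and tail medians lie below 0 throughout and the middle and kinase-module medians close to 0. Settings that shift nearly all ratios alike, such as spike-in scaling, could hardly move these points. The median of cohesin and its partners reaches 0.0028 where the mean over probe sets was used.

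The cells carried the markers of embryonic stem cells, with all 9 measured above the floor on both arrays. Their summed signal was 88136 after knockdown and 90789 in the control. Single genes differed in both directions, with 5 of the 9 above 0 and 4 below. Pou5f1 was at 6975 against 9467, Sox2 at 12754 against 12125 and Nanog at 6864 against 4950. Klf4 was at 8299 against 5496, 1.51-fold higher and the 1 stem cell marker past 1.5-fold. Markers of other cells had summed signals of 652 and 622 for 4 of 6 fibroblast genes measured, 1539 and 1343 for 4 of 4 neural genes, and 256 and 285 for 2 of 4 mesoderm genes. Within the neural genes Sox1 was at 286 against 114, 2.51-fold higher, and Nes at 261 against 319 (log2 ratio -0.29). For 3 of 4 trophoblast genes the sums were 754 and 1012. Those of 4 of 5 extraembryonic endoderm genes were 901 and 365. Among them Foxa2 was at 601 against 128, 4.71-fold higher, and supplied most of the knockdown sum but not of the control sum. Among the markers of other cells, Krt7 (328 against 585), Col1a2 (185 against 114) and Sox17 (97.2 against 54.6, below the floor in the control) also passed 1.5-fold. The defining markers Thy1, Dcn, Mixl1, Gata4 and Elf5 were below the floor on both arrays, and no probe set was named for T alone. As a sign of RNA integrity, the control probe sets at the 3' end of beta-actin exceeded those at the 5' end by 0.77 (knockdown) and 0.96 (control) on the log2 scale, and those of Gapdh by 0.058 and 0.046. The part of these marker and RNA differences in the ratios above was not tested.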

How the data were processed

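Total RNA was column-purified, treated with DNase and amplified to biotin-labelled cRNA, per the labels' protocols. The deposited table held log2 values of 45101 probe sets on 2 arrays, made with MAS5 per the submitters' processing notes. MAS5 subtracts mismatch signal, which makes dim probe sets noisy, and scales each array: back on the linear scale, the deposited values of either array averaged 500.0 once 2% at each end was trimmed. The sources used here do not state the MAS5 version or any later step. The number of arrays limits the precision.

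From the values as deposited, 64 control probe sets were left out. Of 45037 others, 34945 carried 1 gene symbol in the platform annotation, 932 several and 9160 were not listed. Symbols were updated through Entrez numbers to RefSeq names of GRCm38.p6 (34741 probe sets, all 44 members). Values below the 50th percentile of both arrays (6.02 on the log2 scale) were raised to it. A gene was measured if a probe set exceeded this floor on 1 array, and was represented by its brightest probe set. Where 1 array was below the floor, the ratio is a bound. Ratios are Mll2 shRNA over control shRNA. Values were given in full for members at 1.5-fold in any probe set, for the highest and lowest of each role, for paralogues and for Ctcf. The members, lists and alternatives were chosen with earlier results of these data known. The gene ratios and fold calls were tested on simulated data. The differences put in were larger than that of any member, and the noise was smaller than the spread at any member's level. That test therefore does not cover differences as small as those of the members. The software was R 4.3.3 with limma 3.58.1 (loess) and Python 3.11.15 (numpy 2.4.6, scipy 1.17.1, pandas 2.3.3, matplotlib 3.10.9).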

Additional observations from a re-analysis of the deposited data

How the results depend on the processing

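There was 1 array per group, so no array could be left out, and no paired analysis was possible because the groups share only 1 replicate number and no test was made. No member reached 2-fold under any of 10 other settings (a lower floor, a higher floor and none; the floor as pseudocount instead; quantile, loess, median and spike-in scaling; averaging a gene's probe sets; and dropping those suffixed _a_at, _s_at or _x_at, which can detect several transcripts), nor at 3-fold, and 1 lower member passed 1.5-fold. Of the 44 members, 24 kept 1 sign under every setting in which they were measured, 17 below 0 and 7 above. The share of all measured genes that did so was not computed, so this count is not a trait of the members. A lower floor or none left every member's ratio as it was, and averaging could not change the 14 members with 1 probe set. Med25 counted as below 0 with a mean of -0.00024 over its probe sets. Without the suffixed probe sets 39 members were measured.

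With spike-in scaling, which by its construction adds the same amount to all ratios above the floor, the medians were 0.013 for all members, 0.0043 for Mediator, 0.058 for cohesin and partners, 0.010 for Ctcf, 0.024 for the ring, 0.043 for the loader, -0.052 for Med27 to Med30, -0.044 for the head, -0.057 for the tail, 0.12 for the middle, 0.13 for the kinase module, 0.12 for the Stag genes, 0.26 for Wapl and Pds5, and -0.73 for Med14. With the mean over probe sets they were 0.029 for cohesin and partners, 0.038 for the ring, -0.066 for the Stag genes, -0.030 for the kinase module, -0.024 for the middle and -0.32 for Med14. Quantile normalization gave -0.023 and loess -0.0090 for the kinase module, and -0.031 and -0.020 for the middle. Without suffixed probe sets the Stag genes were at -0.16 and the middle at -0.023. The cause of these shifts was not tested.

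Over all genes, the 173 higher and 116 lower at 2-fold became 258 and 82 with spike-in scaling (75.9% higher, against 59.9%), 144 and 138 after quantile normalization, 494 and 482 when the floor was the 30th percentile, 50 and 38 when it was the 70th, 1753 and 1744 with no floor and 87 and 70 with the pseudocount. At 1.5-fold they were 873 and 553, and at 3-fold 27 and 18.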
